A study of Drosophila melanogaster with 6 samples.

Results

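The Tweedle, Lcp and Vajk genes of Drosophila melanogaster encode secreted proteins of the cuticle, the chitin-based outer coat of the insect. They were taken as all features whose symbol starts with Twdl, Lcp or Vajk, which gave 44 of the 16496 features, with 25 Tweedle, 15 Lcp and 4 Vajk genes. The rule uses the symbols alone.

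Cuticle is laid down by epithelial cells and is replaced at each moult, and during metamorphosis the leg epithelium first makes a pupal cuticle, then detaches from it and makes the adult cuticle. Tweedle proteins are an insect-specific family of structural cuticle proteins, and dominant mutations in members of the family give short and stocky larvae. The Lcp proteins, named from larval cuticle, are structural proteins of the larger class that binds chitin through a shared motif. The Vajk proteins are a small family of insect cuticle proteins named from the amino acids they are rich in. The bristles of the leg are cuticular too, since a shaft cell secretes the hair and a socket cell the ring around its base.

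Single-cell RNA was measured in the first segment of the foreleg tarsus of pupae, with 65 to 70 segments pooled per cell suspension. There were 6 libraries, which came from both sexes at 12 h after puparium formation, from males at 16, 20 and 36 h and from females at 24 h. Values given in library order run by age, with the female first at 12 h. The 12 h, 20 h and 36 h pupae were dsx-GAL4 > UAS-mCherry, the 16 h pupae were dsx-GAL4 > UAS-GFP, and the 24 h female pupae were from the inbred strain RAL-517, for which the labels name no transgene. The dsx-GAL4 driver expresses the fluorescent reporter where doublesex, a gene of sex determination, is active. Each sex and age was 1 library, so no comparison between libraries could be tested, and every interval below is a 95% interval for counting error alone. The 24 h female differed from the 12 h female in genotype as well as age, and cells of the 36 h male were dissociated for 45 min against 35 min in the others.

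The retained cells numbered 9709 to 12376 per library and held 59178364 to 154347143 unique molecular identifiers (UMIs, each marking 1 captured RNA molecule). Median depth was 5121 UMIs per cell in the 16 h male and 8274.5 to 12111.5 in the others. Levels are given as CPM, a gene's UMIs scaled to the total UMIs of the cells summed, and are not divided by gene length because the kit reads the 3′ end of each molecule, and 3 counts, taken as the floor, were worth 0.0194 to 0.0507 CPM. The male-specific RNA roX1 was at 20.5 and 54.9 CPM in the females and at 621 to 1228 CPM in the males, as the sex labels have it. Any 2 libraries shared 19 to 41 cell barcodes, at most 0.388% of the smaller one.

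A few genes carried nearly all of the families' RNA. Of the 44 genes, 6 reached 10 CPM in at least 1 library (TwdlE, Lcp65Ad, Lcp65Ac, Lcp65Ag2, Vajk4 and Vajk2), 16 reached 1 CPM, and the other 28 stayed under 1 CPM in all 6 libraries, the highest of them being Lcp4 at 0.686 CPM. Only 22 genes had 20 UMIs or more in some library. A further 8 were at or under the floor in all 6, namely TwdlB, TwdlQ, TwdlL, TwdlP, TwdlJ, TwdlZ, Lcp65Ab1 and Lcp65Ab2. Lcp65Ab1 and Lcp65Ab2 had 0 UMIs in all libraries, but near-identical copies such as these can lose shared reads, and the sources used here do not say how shared reads were assigned.

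The 3 families followed different courses. In library order, the Tweedle genes summed to 95.7, 145, 105, 26.5, 18.1 and 248 CPM. The Lcp genes summed to 192, 216, 74.9, 16.8, 10.9 and 7.42 CPM in the same order. The Vajk genes summed to 53.1, 55.2, 29.0, 15.9, 20.2 and 108 CPM. Tweedle and Vajk were thus lower at 20 h and 24 h than before and after, with their highest sums at 36 h, while Lcp was highest at 12 h and lowest at 36 h. For Tweedle the order of the 36 h and 12 h males depends on the processing, since the log2 ratio of 0.78 became -0.37 when each cell was thinned to 2000 UMIs. Thinning weights cells alike and also leaves out cells with fewer UMIs, 2060 in the 12 h male and 565 in the 36 h male. Among the 22 genes with 20 UMIs or more, the highest library was the 36 h male for 13 (5 Tweedle, 4 Lcp and 4 Vajk), a 12 h library for 5, all of them Lcp, and the 16 h or 20 h male for 2 each. How all features divide over the libraries in this way was not counted, so these numbers describe the members alone.

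**Figure D1:**
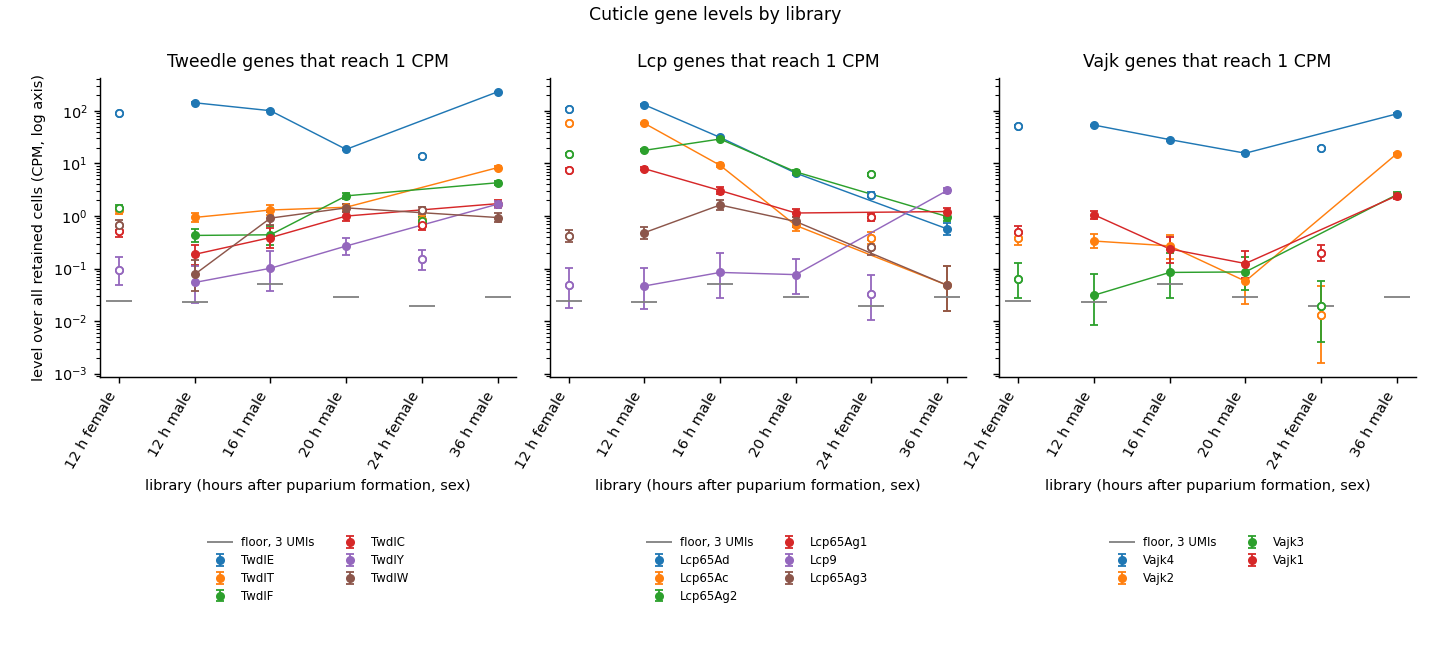
Levels of the 16 genes that reach 1 CPM, as CPM on a log axis, by library, with 95% counting intervals. Filled points are males, joined by lines, open points are females, and grey bars are the floor of 3 UMIs. TwdlE runs from 143 CPM in the 12 h male through 18.5 at 20 h to 230.2 at 36 h, Lcp65Ad and Lcp65Ac descend throughout the male series, and Vajk2 reaches 15.3 CPM at 36 h only.

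TwdlE (FBgn0031957, 2L:7857957-7860839 on the minus strand, BDGP6.54 annotation) was the leading Tweedle gene in all 6 libraries and held 70.1% to 98.6% of the family's UMIs. Its level at 12 h was 91.1 CPM in females and 143 CPM in males, followed by 101 CPM at 16 h, 18.5 at 20 h, 13.9 at 24 h and 230.2 at 36 h. The intervals around these were narrow, 13.3 to 14.5 CPM at the lowest and 227 to 233 at the highest. TwdlE was therefore low at 20 h and 24 h, in a male and a female of different genotypes, and high on either side. The log2 ratio was -2.95 (-3.01 to -2.88) for the 20 h against the 12 h male and 3.63 (3.57 to 3.70) for the 36 h against the 20 h male, comparisons that share the 20 h library.

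TwdlE lay in epithelium-like cells at 12 h and in bristle cells at 36 h. Cells were grouped by clustering without any of the 44 genes and named from marker lists. In the 12 h male TwdlE was at 215 CPM (211 to 218) in the 4980 epithelium-like cells, which held 88.8% of its UMIs, and at 12.3 CPM (9.27 to 16.1) in the 266 socket-like cells. In the 36 h male it was at 23.4 CPM (22.2 to 24.6) in the 6596 epithelium-like cells, at 416 CPM (400 to 433) in the 363 socket-like cells and at 1432 CPM (1409 to 1456) in the 322 shaft-like cells. The shaft-like cells alone held 60.3% of the gene's UMIs, although they were 3.09% of the cells and held 9.69% of the UMIs of all genes. Between these males the log2 ratio of the later to the earlier was thus -3.20 for the epithelium-like class and 5.07 for the socket-like class. Shaft-like cells were named at 20 h and 24 h as well, and there TwdlE was at 3.1 CPM (1.92 to 4.74) and 1.31 CPM (0.654 to 2.34).

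At 36 h TwdlE in the epithelium-like class was at the level of 2 classes that make no cuticle. Glia-like cells had 21.7 CPM (16.1 to 28.5) and neuron-like cells 20.3 (15.7 to 25.7), beside 23.4 in epithelium-like cells, so no epithelial level above theirs was detectable. Some small groups of few UMIs stood higher, with 56.4 CPM (39.7 to 77.8) in sheath-like cells from 37 UMIs. Among unnamed clusters with shallow cells, one of 154 cells without markers of another class had TwdlE at 93.4 CPM from 45 UMIs, and one of 180 cells with 10 neuron markers had 125 CPM from 35 UMIs. The shares of cells with a TwdlE UMI gave the same order, with 95.3% of shaft-like, 75.5% of socket-like, 18.0% of epithelium-like and 17.1% of glia-like cells. Shaft-like cells were deep, with a median of 29486 UMIs against 8161.5 in epithelium-like and 8686 in glia-like cells. After each cell was thinned to 2000 UMIs the 4 shares were 81.9%, 35.7%, 5.57% and 5.33%.

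**Figure D2:**
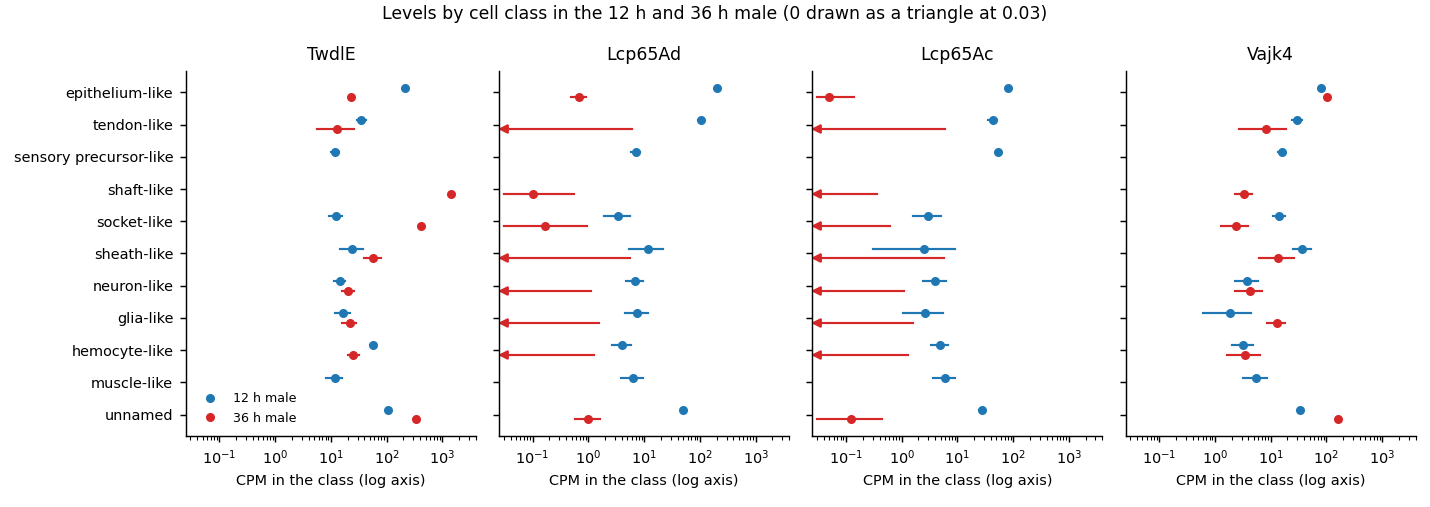
Levels of TwdlE, Lcp65Ad, Lcp65Ac and Vajk4 by cell class in the 12 h male (blue) and the 36 h male (red), as CPM on a log axis with 95% counting intervals and 0 drawn as a triangle. TwdlE stands at 1432 CPM in shaft-like cells at 36 h, while Lcp65Ad and Lcp65Ac are at 206 and 80.3 CPM in epithelium-like cells at 12 h and at 0.665 and 0.0487 CPM there at 36 h.

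Within the 36 h bristle cells TwdlE was graded. Among the 33 clusters, a shaft-like cluster of 19 cells had TwdlE at 3188 CPM (3034 to 3348) and the other shaft-like cluster, of 303 cells, at 1339 CPM (1316 to 1363). An unnamed cluster of 46 cells had 2975 CPM (2893 to 3060) and held 20.6% of the TwdlE UMIs. It met 6 of the shaft markers, among them forked (f) and javelin (jv), which shape the bristle cytoskeleton, but stayed without a name because nompA, a sheath marker, was among its 10 leading genes. The larger socket-like cluster, of 327 cells, had TwdlE at 494 CPM (474 to 514), and the smaller one had 96.7 CPM from 113 UMIs. Of the Tweedle sum of 248 CPM at 36 h most lay outside the epithelium-like class, with 56.3% of the family's UMIs in shaft-like, 10.0% in socket-like, 24.2% in unnamed and 8.35% in epithelium-like cells. Thinning to 2000 UMIs by construction lets each remaining cell count alike and leaves out cells with fewer. With it the log2 ratio of the Tweedle sum between the 36 h and the 12 h male went from 0.78 (0.75 to 0.80) to -0.37.

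**Figure D3:**
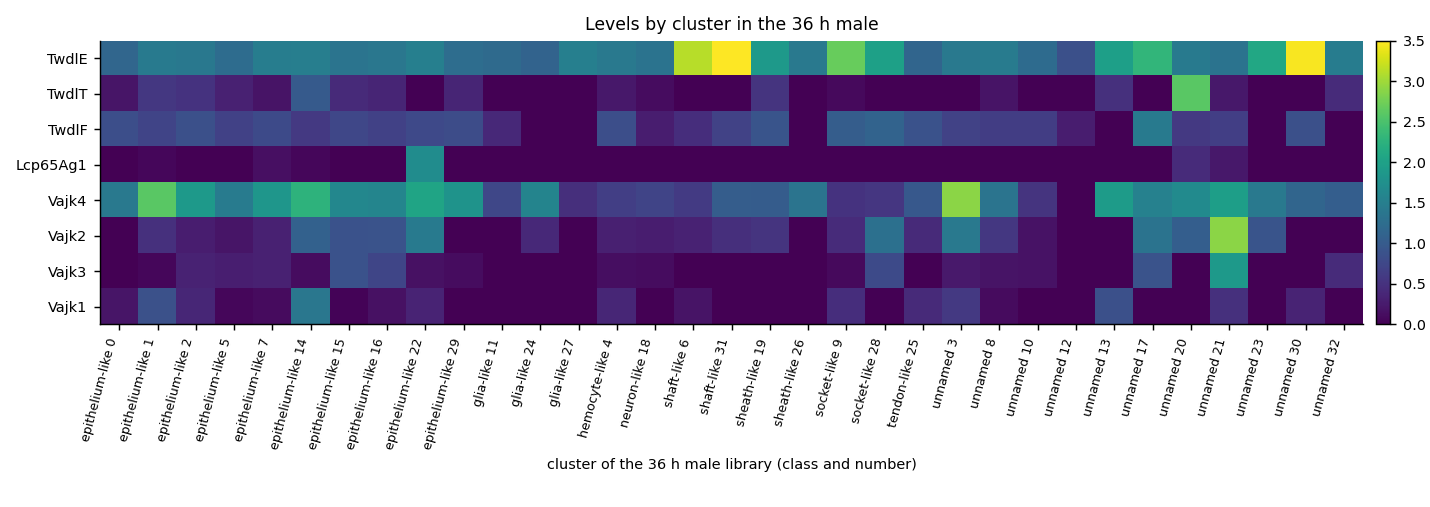
Levels of 8 genes in the 33 clusters of the 36 h male, as log10 of CPM + 1, with clusters grouped by class along the x axis. TwdlE is brightest in the shaft-like clusters and in an unnamed cluster at 2975 CPM, TwdlT in a single unnamed cluster at 407 CPM, and Vajk2 and Vajk4 in separate unnamed clusters at 776 and 792 CPM.

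TwdlE shares 968 exonic bases with lectin-28C, a gene on the opposite strand, and the sources used here do not say whether counting used strand. In library order lectin-28C was at 76.9, 165, 50.3, 15.9, 13.1 and 4.35 CPM. Hemocyte-like cells held 70.7% to 93.5% of its UMIs in the libraries up to 24 h, at 2296 CPM in the 12 h male, but 20.0% at 36 h, when shaft-like cells held 34.2%. TwdlE in those hemocyte-like cells was at 55.8 CPM, against 16.5 in glia-like cells of the same library, so reads of the pair cannot be told apart there. In the epithelium-like cells of the 12 h male lectin-28C was at 8.81 CPM beside 215 CPM of TwdlE. At 36 h lectin-28C was at 15.3 CPM (13.0 to 18.0) in shaft-like and 9.25 CPM (6.97 to 12.0) in socket-like cells. The unnamed cluster of 46 cells had 32.1 CPM (24.1 to 42.0) and epithelium-like cells, which were lower in TwdlE, 1.35 CPM (1.07 to 1.67). Hemocyte-like cells broke this order, with lectin-28C at 31.3 CPM (25.1 to 38.4) beside 25.4 CPM of TwdlE. In the shaft-like and socket-like cells and the unnamed cluster TwdlE exceeded lectin-28C by far. The part that reads shared by the pair play in these values was not tested.

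In the early epithelium TwdlE was regional. Epithelium-like cells were called positive for a region with 2 UMIs or more of its genes and compared with those that had 0. Cells positive for the posterior genes en, inv and hh, which mark the posterior compartment, had TwdlE at 258 CPM against 54.5 in females of 12 h and at 457 against 89.0 in males of that age. The log2 ratios for posterior cells were 2.25 (2.17 to 2.32), 2.36 (2.31 to 2.41), 1.64, 0.83, 1.88 and 0.08 (-0.11 to 0.27) in library order. Posterior cells were thus higher up to 24 h, and at 36 h the interval included 0. Median depth was close between the positive and negative cells, at 13436 and 14241 UMIs in the 12 h male.

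TwdlE was lower in other regions of the same epithelium. Cells positive for nub, a limb patterning gene expressed at joints, had log2 ratios of -1.67, -1.71, -1.20 and -0.82 in the first 4 libraries, the only ones with enough such cells. Cells positive for Lim1, ara or caup, which pattern the leg along its length, had -2.02, -2.39, -2.37 and -0.82. A single cluster of 736 epithelium-like cells held 50.8% of TwdlE UMIs in the 12 h male at 959 CPM (940 to 979), and one of 509 cells held 38.0% in the 12 h female at 602 CPM (584 to 620). In the 20 h male, where the TwdlE level was low, its highest cluster was one of 135 epithelium-like cells led by the immune genes Dro and AttA, at 157 CPM (139 to 176).

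The other Tweedle genes were far lower. TwdlT (3R:27049220-27051004 on the plus strand) was at 1.29, 0.941, 1.30, 1.47, 0.842 and 8.32 CPM in library order. Its 36 h value rests on very few cells, since 3 of 10412 cells held 50% of its 862 UMIs and 1 cell had 173. An unnamed cluster of 216 cells, with drm and Lim1 among its 10 leading genes, held 83.3% of the TwdlT UMIs at 407 CPM (378 to 438), and 11.1% of its cells had any. TwdlT in the epithelium-like cells was at 1.37 CPM (1.12 to 1.66) in the 12 h male and 2.17 (1.82 to 2.57) in the 36 h male.

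TwdlF and TwdlC were spread thinly over the classes. TwdlF was at 1.43, 0.428, 0.439, 2.42, 0.803 and 4.30 CPM in library order, and at 36 h at 10.1 CPM (7.70 to 13.0) in socket-like, 5.90 (3.44 to 9.45) in hemocyte-like and 4.57 (4.06 to 5.14) in epithelium-like cells. The epithelium-like and hemocyte-like intervals overlapped, and the socket-like interval lay above the epithelium-like one. TwdlC was at 0.510, 0.187, 0.389, 0.998, 0.661 and 1.72 CPM, and at 36 h at 3.53 CPM (2.19 to 5.40) in socket-like against 1.38 (1.10 to 1.70) in epithelium-like cells. TwdlW and TwdlY also passed 1 CPM, with ranges of 0.0777 to 1.43 and 0.0544 to 1.68 CPM.

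The remaining 19 Tweedle genes stayed at or under 0.643 CPM. They include 12 genes (TwdlM, TwdlP, TwdlB, TwdlL, TwdlO, TwdlK, TwdlJ, TwdlN, TwdlH, TwdlR, TwdlS and TwdlD) that lie side by side at 3R:26619118-26641054 with no other protein-coding gene between them. None of these 12 exceeded 0.118 CPM, the value of TwdlD in the 16 h male. TwdlF and TwdlV, on the same arm at 3R:4247020-4255833 with TwdlG, and TwdlY, on the X chromosome with TwdlX, TwdlZ and Twdlalpha, were the higher members of their groups, in which TwdlG stayed at or under 0.183 CPM and the others at or under 0.0579 CPM.

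The Lcp family consists of the Lcp65A genes, 10 of which lie at 3L:6130386-6151803 with 5 Cpr65A genes among them, the genes Lcp1 to Lcp4 at 2R:8430115-8438495, and Lcp9. The Lcp65A group summed to 191, 216, 74.5, 16.2, 10.4 and 2.87 CPM in library order. Lcp1 to Lcp4 with Lcp9 summed to 0.439, 0.249, 0.355, 0.614, 0.460 and 4.55 CPM. The sums thus ran in opposite directions, with log2 ratios of -6.23 and 4.19 for the 36 h against the 12 h male. The sum of Lcp1 to Lcp4 with Lcp9 was 32 UMIs in the 12 h male, and Lcp9 held 67.3% of the 471 UMIs at 36 h. Lcp1 was lower at 36 h, at 0.0386 CPM against 0.101 in the 12 h male.

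Lcp65Ad (FBgn0020641, 3L:6143395-6144101 on the plus strand) was the leading Lcp gene at 12 h and 16 h. It was at 109 CPM (108 to 111) in females and 131 CPM (129 to 133) in males of 12 h, then at 31.3 CPM at 16 h, 6.56 at 20 h, 2.55 at 24 h and 0.570 (0.434 to 0.735) at 36 h. Lcp65Ac (FBgn0020642, 3L:6144819-6145393 on the plus strand), its neighbour, was at 58.2, 58.1, 9.23, 0.662, 0.382 and 0.0483 CPM in library order. Both genes were lower at each later age, and Lcp65Ac more so. Its log2 ratio between the 20 h and 12 h males was -6.46 (-6.82 to -6.11), and that of Lcp65Ad was -4.32 (-4.43 to -4.21).

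Of the Lcp65Ag genes, Lcp65Ag2 and Lcp65Ag3 were highest at 16 h and Lcp65Ag1 at 12 h. Lcp65Ag2 (FBgn0020637, 3L:6132990-6133593 on the minus strand) was at 14.9, 17.8, 29.2, 6.93, 6.23 and 0.975 CPM at 16 h standing above its 12 h levels, where Lcp65Ad and Lcp65Ac were below their 12 h levels. Lcp65Ag3 was at 0.423, 0.482, 1.62, 0.787, 0.259 and 0.0483 CPM. It shares 543 exonic bases with asRNA:CR46005 on the opposite strand, which was at 0.338 CPM at 16 h, its highest library too. Whether counting used strand is not stated, so reads of this pair may not be separable. Lcp65Ag1 was at 7.62, 7.96, 3.06, 1.14, 0.939 and 1.22 CPM, with a log2 ratio of -1.38 (-1.62 to -1.15) for the 16 h against the 12 h male. At 20 h and 24 h Lcp65Ag2 was the leading Lcp gene, with 41.2% and 57.3% of the family's UMIs. The 3 genes are close copies of one another, and reads that fit more than 1 of them could be divided in ways that the sources used here do not state. Lcp65Af was at 0.342 CPM in the 12 h male with 0 UMIs at 36 h, and Lcp65Ae and Lcp65Aa stayed under 0.1 CPM.

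**Figure D4:**
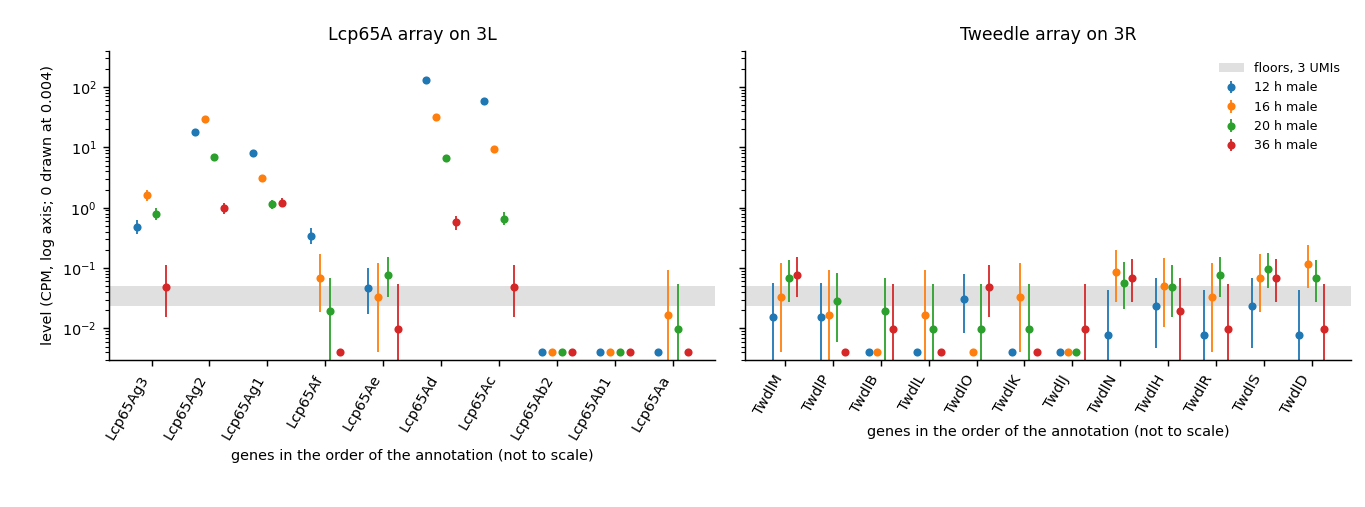
Levels of the 10 Lcp65A genes (left) and of the 12 adjacent Tweedle genes on 3R (right) in the 4 male libraries, in the order of the annotation, as CPM on a log axis with 95% counting intervals. The grey band spans the floors of 3 UMIs. Lcp65Ad reaches 131 CPM in the 12 h male and Lcp65Ag2 29.2 CPM in the 16 h male, whereas no gene of the Tweedle group exceeds 0.118 CPM.

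The early Lcp genes were epithelial. In the 12 h male 89.6% of Lcp UMIs lay in epithelium-like cells, which held 59.1% of all UMIs. Lcp65Ad was at 206 CPM (203 to 210) there, at 103 CPM (92.1 to 115) in tendon-like cells and at 3.97 CPM (2.60 to 5.82) in hemocyte-like cells. Of the epithelium-like cells 39.2% had a Lcp65Ad UMI, and 15.4% after thinning, against 5.12% and 1.37% of hemocyte-like cells. Tendon cells, which anchor muscles to the cuticle, are themselves specialised epithelial cells. Lcp65Ac was at 80.3 CPM (78.3 to 82.3) in epithelium-like, 42.8 CPM (35.9 to 50.5) in tendon-like and 53.7 CPM (50.1 to 57.5) in sensory precursor-like cells of the 12 h male, and at 36.3 CPM in the precursor-like cells of the 12 h female. Lcp65Ad was far lower in those precursor-like cells, at 7.13 and 12.7 CPM. Lcp65Ag2 was at 27.0 CPM in epithelium-like and 21.1 CPM in tendon-like cells of the 12 h male, and at 39.3 CPM (37.4 to 41.2) in the epithelium-like cells at 16 h.

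Within the epithelium-like class itself Lcp65Ad and Lcp65Ac were likewise lower at later ages. In epithelium-like cells Lcp65Ad was at 157, 206, 42.1, 7.84, 1.55 and 0.665 CPM in library order and Lcp65Ac at 81.6, 80.3, 12.3, 0.699, 0.260 and 0.0487, the last from 3 UMIs. At 36 h both genes had 0 UMIs in glia-like, hemocyte-like and neuron-like cells. In the 24 h female much of it lay outside the class, in an unnamed cluster of 784 cells with drm among its leading genes, where Lcp65Ad was at 21.9 CPM with 54.3% of its UMIs.

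Neighbouring Lcp65A genes differed in region. In cells positive for nub, Lcp65Ad was higher at 12 h, at 453 against 88.7 CPM in the female and 564 against 124 CPM in the male, with log2 ratios of 2.35 (2.29 to 2.41) and 2.18 (2.13 to 2.23). Lcp65Ac was lower in the same cells, with -1.32 (-1.47 to -1.17) in females and -0.70 in males of 12 h, and Lcp65Ag1 was lower too, with -3.38 and -1.88. At 20 h the order was the other way round, since Lcp65Ac was at 7.71 CPM in nub-positive and 0.480 CPM in nub-negative cells, a log2 ratio of 4.0 (3.08 to 4.88) from 18 and 32 UMIs, and Lcp65Ad had -0.51 (-1.43 to 0.27). Cells positive for the dorsal gene bi had more Lcp65Ac in the first 5 libraries, with log2 ratios of 0.87, 1.48, 2.74, 2.55 and 1.25, the last with an interval that included 0 (-0.02 to 2.61).

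In cells positive for the ventral genes H15 and mid, all 3 leading Lcp65A genes were lower. Lcp65Ad had log2 ratios of -0.54, -0.87, -1.69 and -2.20 in the first 4 libraries, Lcp65Ac -0.42, -1.0, -2.18 and -2.31, and Lcp65Ag2 -0.87, -1.31, -2.0 and -2.03. In cells positive for the joint genes dysf and TfAP-2, Lcp65Ag2 and Lcp65Ad were mostly higher. Lcp65Ag2 had 1.41, 0.84, 2.28, 0.14, 0.79 and 1.16 in library order, and Lcp65Ad 1.48, 0.39, 2.14, 0.92, 1.60 and 0.57, the 36 h value resting on 10 and 25 UMIs.

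**Figure D5:**
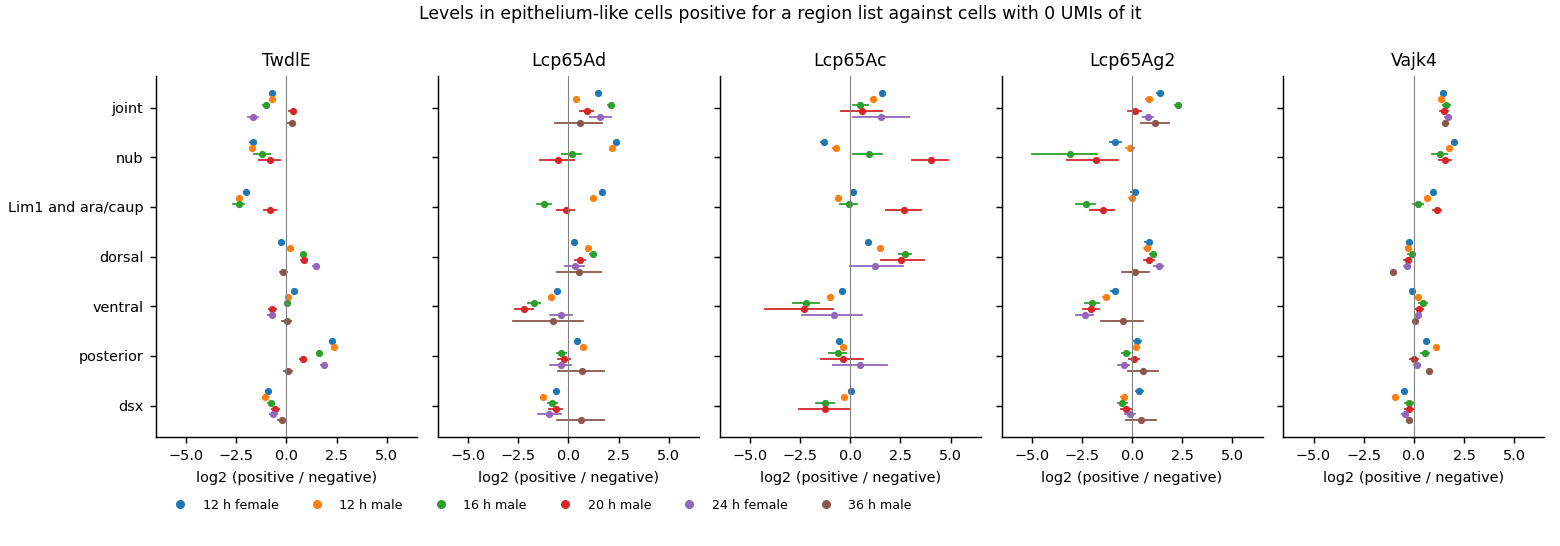
Log2 ratio of the level in epithelium-like cells positive for a region list to that in cells with 0 UMIs of it, for 5 genes, 7 regions and 6 libraries, with 95% counting intervals. TwdlE lies right of 0 for posterior cells up to the 24 h female and left of 0 for nub-positive cells, Lcp65Ad lies at 2.35 and 2.18 for nub-positive cells at 12 h, and Vajk4 lies between 1.36 and 1.70 for joint cells in all 6 libraries.

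Lcp9 and the Lcp1 to Lcp4 group were late and low. Lcp9 was at 0.0479, 0.0466, 0.0845, 0.0768, 0.0324 and 3.06 CPM in library order, and it was the leading Lcp gene of the 36 h male with 41.3% of the family's UMIs. It shares 9 exonic bases with asRNA:CR44067 on the opposite strand, which was at 2.16 CPM at 36 h, its highest library too. Lcp4 was at 0.0798, 0.0777, 0.186, 0.297, 0.220 and 0.686 CPM and Lcp3 at 0.0638, 0.0155, 0.0338, 0.173, 0.155 and 0.550 CPM, both highest at 36 h. Lcp1 went the other way, with 29 UMIs in females and 13 in males at 12 h, 0 at 16 h and 20 h, and 4 at both 24 h and 36 h. Lcp65Ag1 was the one Lcp65A gene with a late site, an epithelium-like cluster of 301 cells in the 36 h male with ImpE2 and esg among its leading genes, which held 92.9% of its 126 UMIs at 49.0 CPM (40.5 to 58.7).

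Vajk4 (FBgn0050101, 2R:17408258-17410204 on the minus strand) held 97.4% to 98.8% of the Vajk UMIs up to 24 h and 81.2% at 36 h. It was at 52.1 CPM in females and 53.8 CPM in males of 12 h, then at 28.5 CPM at 16 h, 15.7 at 20 h, 20.0 at 24 h and 87.8 (86.0 to 89.7) at 36 h. The low point was again at 20 h and 24 h, as for TwdlE. Unlike TwdlE, Vajk4 was not lower in epithelium-like cells at 36 h, with 104 CPM (101 to 106) against 79.5 (77.5 to 81.5) in the 12 h male. At 36 h it was at 3.29 CPM (2.26 to 4.62) in shaft-like and 2.36 CPM (1.29 to 3.95) in socket-like cells. Hemocyte-like cells had 3.21 CPM in the 12 h male and 3.47 in the 36 h male. Epithelium-like cells held 85.4% of the Vajk family's UMIs in the 12 h male and 62.9% in the 36 h male. In the latter they held 59.5% of the UMIs of all genes. Unnamed cells held 5.43% of the family's UMIs in the 12 h male and 35.3% in the 36 h male.

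Vajk4 was higher in joint cells in every library. Its log2 ratio for cells positive for dysf and TfAP-2 was 1.44, 1.36, 1.61, 1.5, 1.70 and 1.56, with levels of 146 against 56.7 CPM in males at 12 h and 202 against 68.6 CPM at 36 h. The joint cells of 36 h were shallower than the rest, with a median of 6400 against 8803 UMIs. Cells positive for nub had 2.00, 1.77, 1.30 and 1.54 in the first 4 libraries. At 36 h the highest cluster was an unnamed one of 379 cells with wg, Wnt6 and the tendon marker sr among its leading genes, where Vajk4 was at 792 CPM (759 to 826) and 80.7% of cells had a UMI. An epithelium-like cluster of 842 cells followed with 400.2 CPM (386 to 415). These clusters held 24.2% and 31.4% of the Vajk4 UMIs. The median over the 10 epithelium-like clusters of at least 50 cells was 64.7 CPM. Vajk4 in the 24 h female was likewise highest in an unnamed cluster, the one of 784 cells that met 12 epithelium markers, at 98.1 CPM (92.0 to 105).

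Vajk1, Vajk2 and Vajk3 lie together at 2L:13920707-13947476, within the gene Ance-3 on the opposite strand but sharing no exonic base with it. All 3 were highest at 36 h. Vajk2 (FBgn0032538, 2L:13932559-13934692 on the minus strand) was at 0.375, 0.334, 0.270, 0.0576, 0.0130 and 15.3 CPM in library order, the 24 h value being 2 UMIs, below the floor. Vajk3 was at 0.0638, 0.0311, 0.0845, 0.0864, 0.0194 and 2.55 CPM, and Vajk1 at 0.503, 1.06, 0.237, 0.125, 0.201 and 2.43 CPM. The log2 ratio of the 36 h to the 20 h male was 8.05 (6.93 to 9.50) for Vajk2, 4.88 (3.94 to 6.03) for Vajk3 and 4.29 (3.49 to 5.22) for Vajk1.

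The late sites of these neighbours differed. An unnamed cluster of 146 cells in the 36 h male, with knrl, kni and CadN among its leading genes, held 71.8% of Vajk2 UMIs at 776 CPM (731 to 822) and 41.7% of Vajk3 UMIs at 74.97 CPM (61.6 to 90.4). Vajk1 was instead highest in an epithelium-like cluster of 992 cells with TfAP-2 among its leading genes, at 23.1 CPM (19.6 to 27.1) with 60.7% of its UMIs, where 10.7% of cells had one. Among epithelium-like cells at 36 h, Vajk1 was higher in joint cells, with a log2 ratio of 3.38 (2.90 to 3.89), and Vajk3 was lower there, with -2.97 (-4.87 to -1.57), but higher in dorsal cells, with 2.91 (2.17 to 3.73). Before 20 h the little Vajk2 there was came from tendon-like cells, which held 70.2%, 86.0% and 62.5% of its UMIs in the 12 h female, 12 h male and 16 h male, or 33, 37 and 10 UMIs. In the 12 h male 44 of the 136 Vajk1 UMIs were in socket-like cells, at 10.1 CPM (7.31 to 13.5), against 0.184 CPM (0.101 to 0.309) in epithelium-like cells.

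The numbers of genes past a 2-fold difference are given over genes with 20 UMIs or more in the higher library, beside the share of all such features, and are a description of these libraries. Between the 12 h male and the 12 h female 1 of 16 members was higher in the male (4.05% of all features) and 4 were lower (10.0%). The higher one was Vajk1, and the lower ones were TwdlF, TwdlW, TwdlC and Lcp1, none of which had more than 55 UMIs in the male. Vajk1 and Lcp1 came under 2-fold without doublet removal, at log2 ratios of 0.98 and -0.96, and after thinning TwdlF alone among these 5 still reached 20 UMIs and was counted. Of the 136 Vajk1 UMIs of the 12 h male 44 were in socket-like cells, a class that was not named in the 12 h female. TwdlE, at 143 against 91.1 CPM, had a log2 ratio of 0.65 (0.62 to 0.68), Lcp65Ad 0.26, Lcp65Ac 0.00 (-0.05 to 0.04) and Vajk4 0.04 (-0.00 to 0.09). The leading genes of the families thus differed less than 2-fold between the sexes at 12 h.

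Between the 20 h and the 12 h male 6 of 17 members were higher (18.9% of all features) and 9 were lower (20.5%). The Tweedle genes split, since 5 of 7 were higher (TwdlF, TwdlW, TwdlC, TwdlV and TwdlY, all at low levels) while TwdlE was lower. The Lcp genes had 1 of 7 higher and 5 lower, and all 3 Vajk genes counted were lower. After thinning TwdlC, TwdlV, TwdlY and Lcp4 among the higher genes came under 20 UMIs. The median log2 ratio was -1.36 over the members and -0.23 over all features.

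Between the 36 h and the 20 h male, which shares the 20 h library with the comparison before, 11 of 20 members were higher (21.5% of all features) and 4 were lower (14.0%). They comprised 3 of 7 Tweedle genes (TwdlE, TwdlT and TwdlY), 4 of 9 Lcp genes (Lcp2, Lcp3, Lcp4 and Lcp9) and all 4 Vajk genes, and the 4 lower ones were Lcp65Ad, Lcp65Ac, Lcp65Ag2 and Lcp65Ag3. After thinning Lcp65Ac and Lcp65Ag3 came under 20 UMIs and were no longer counted. The median log2 ratio was 1.43 over the members and 0.12 over all features.

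Between the 24 h and the 12 h female, which shares the 12 h female with the comparison of the sexes, 2 of 19 members were higher (13.6% of all features) and 11 were lower (15.2%). TwdlE had a log2 ratio of -2.71 (-2.78 to -2.65), Lcp65Ad -5.42, Lcp65Ac -7.25, Lcp65Ag2 -1.26 and Vajk4 -1.38 (-1.45 to -1.32), all in the direction of the 20 h against the 12 h male. The higher ones were Lcp3 and Lcp4, with 24 and 34 UMIs, which a minimum of 50 UMIs or thinning leaves out. The same minimum leaves out TwdlV, Lcp65Af, Lcp1 and Vajk2 among the lower ones. The median log2 ratio was -1.26 over the members and 0.02 over all features.

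Some other cuticle genes ran like the Lcp65A genes and some did not. The Ccp84A genes, chitin-binding cuticle proteins like Lcp, summed to 342, 357, 34.1, 3.04, 2.20 and 0.396 CPM in library order. The Edg genes, cuticle genes that respond to ecdysone, summed to 515, 625, 56.2, 49.7, 13.0 and 2.52 CPM. Both were highest at 12 h and lowest at 36 h, as the Lcp family was. The Cpr genes, the larger group of chitin-binding cuticle proteins, summed in males to 26021 CPM at 12 h and 3023 CPM at 36 h. Cpr72Ea alone held 42.5% of the 12 h male sum. Over the 52 Cpr genes with 20 UMIs or more the median log2 ratio of the 36 h to the 12 h male was 1.57. It was -0.02 over all features, so the sum and the median went in opposite directions. At 36 h 19 of 50 Cpr genes were higher than at 20 h (21.5% of all features) and 11 lower (14.0%). The Osi genes, which encode membrane proteins of cuticle-secreting cells, summed to 96.6 CPM at 12 h and 10403 CPM at 36 h, and 23 of 24 were higher at 36 h than at 20 h.

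Lists of related genes are read against the same shares. At 20 h against 12 h in males, where 18.9% of all features were higher and 20.5% lower, 5 of 10 genes of the apical extracellular matrix, the layer on which cuticle is built, were higher and 1 was lower. Of 18 genes of chitin synthesis and assembly 2 were higher and 12 lower, of 7 tanning genes 4 and 1, and of 12 ecdysone response genes 3 (25.0%) and 2 (16.7%), the last near the shares of all features. At 36 h against 20 h, where 21.5% of all features were higher and 14.0% lower, the counts were 8 and 0 for the apical matrix, 8 and 3 for chitin, 4 and 2 for tanning and 4 and 1 for ecdysone response. Gasp, a chitin-binding protein, ran like TwdlE in that it was at 609 CPM in the 12 h male, 30.7 at 20 h and 471 at 36 h. Between the sexes at 12 h (4.05% of all features higher and 10.0% lower in the male) the apical matrix list had 0 genes past 2-fold, the chitin list 2 higher and 1 lower, the tanning list 0 and 5, and the ecdysone list 0 and 1. The tanning genes ple and Ddc were at 21.5 and 74.2 CPM in the female and 1.74 and 14.3 CPM in the male. The female library had a cluster of 312 epithelium-like cells with ple among its leading genes, and the male library had no such cluster. Its part in the count was not tested. Between the females (13.6% higher and 15.2% lower at 24 h) the same lists had 3, 0, 1 and 3 genes higher and 2, 10, 2 and 3 lower.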

How the data were processed

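Single-cell libraries of the foreleg first tarsal segment were made with a 3′ droplet kit, and the deposited matrices are raw UMI counts, which per the file headers were produced with Cell Ranger 7.0.0. The genome was BDGP6 per the submitters' processing notes, and coordinates come from the Ensembl release 115 annotation of BDGP6.54, in which all 44 genes were found by identifier. Groups are those of the labels, with 1 library each. 2 further matrices matched no sample and were not used. The members and all gene lists were chosen with earlier results of these data known.

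Barcodes with under 500 genes or over 10% mitochondrial UMIs were removed, and the highest Scrublet scores were removed at 0.8% per 1000 cells. Each library was clustered alone (scanpy 1.11.5, Python 3.11.15) from 2000 variable genes without the 44 members, with 30 components, 15 neighbours and the Leiden method at resolution 1. Names came from markers of 12 classes. A marker counted when found in 10% of a cluster's cells and 2-fold above the others with 10 CPM added. A class other than epithelium needed 3 markers, and an epithelium-like cluster needed 6 epithelium markers with a log2 fold of -1 or more. Clusters under 10 cells, clusters whose top 10 genes were led by another class, and shallow clusters stayed unnamed.

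Levels are CPM of summed UMIs with Poisson intervals (exact), cell shares carry Clopper-Pearson intervals (exact), and ratios have exact conditional binomial intervals, all at 95% for counting error only. No test was run. The scripts were tested on simulated data. Regions needed 100 positive cells and 20 UMIs. Thinning to 2000 UMIs left out 1279, 2060, 1125, 1325, 0 and 565 cells in library order. Members that reach 10 CPM were named in full, and class and region values were taken for the 4 highest of each family. Further members, clusters and the leading genes beside clusters were named after their values were seen. Alternatives were another scaling, other cell filters, count minimums, cluster and region settings. Sequences were not analysed here.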

Additional observations from a re-analysis of the deposited data

Results flagged for a closer look

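In 3 genes the 36 h and 12 h males differed in opposite directions in different cell classes, and with 1 library per age these differences were not tested. TwdlE had a log2 ratio of 5.07 (4.69 to 5.49) in socket-like cells, from 12.3 to 416 CPM, and of -3.20 (-3.28 to -3.12) in epithelium-like cells, from 215 to 23.4 CPM. Vajk4 had 2.76 (1.38 to 4.49) in glia-like cells, from 5 to 30 UMIs, the latter in 2.66% of the cells, and -2.59 (-3.54 to -1.74) in socket-like cells, from 62 to 14 UMIs. Vajk1 had 4.25 (3.47 to 5.15) in epithelium-like cells, from 14 to 216 UMIs, and -2.73 (-3.95 to -1.68) in socket-like cells, from 44 to 9 UMIs.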

How the results depend on the processing

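With 1 library per group no replicate could be left out. No paired analysis was possible because each group is 1 library and no test was run. For the 36 h against the 12 h male, the Tweedle log2 ratio of 0.78 was 0.64 with TMM scaling, 0.81 with at least 1000 genes per cell and, reversed, -0.37 after thinning. The Lcp ratio of -4.86 was -5.00 with TMM and -4.66 thinned, and the Vajk ratio of 0.97 was 0.83 and 1.07. For the 12 h male against the female, Tweedle went from 0.60 to 0.64 with both settings, Lcp from 0.17 to 0.21 with TMM and 0.43 thinned, and Vajk from 0.06 to 0.20 thinned. For the 24 h against the 12 h female, thinning gave -2.34 for Tweedle (-2.41 before) and -4.02 for Lcp (-4.14 before).

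Without a UMI minimum, members past 2-fold numbered 4 higher and 15 lower in the 12 h male against the female, 22 higher at 20 h against 12 h, 13 lower at 36 h against 20 h, and 8 higher and 18 lower at 24 h against 12 h. After thinning these were 0 and 1, 3, 2, and 0 and 7. A minimum of 50 UMIs left 0 higher and 7 lower at 24 h, and without doublet removal 0 were higher in the 12 h male than in the female. Every call of a member lost after thinning was of a gene that came under 20 UMIs there, and those lost without doublet removal came under 2-fold.

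At Leiden resolution 2 the epithelium-like shares of UMIs were 87.8% (Tweedle) and 89.2% (Lcp) in the 12 h male and 7.78%, 80.6% and 60.3% (Tweedle, Lcp and Vajk) in the 36 h male. A marker fold of 1.5 gave 7.87%, 62.6% and 61.8% at 36 h. With 1 UMI in place of 2 to call a region, 56 of the region ratios moved beyond their interval, 49 did not, and TwdlT in ventral cells of the 20 h male went from -1.34 to 0.038. With 3 UMIs 23 moved and 73 did not. At the 16 h depth, levels under 0.0507 CPM cannot be told from 0.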
